A study of Rattus norvegicus with 2 samples.

Results

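The S100 genes encode small calcium-binding proteins, and 10 of them were read in lens epithelial cells (LECs) of Shumiya cataract rats (SCRs). Of the 10, *S100a6* and *S100a4*, which lie close together in one gene cluster, had less than 0.5-fold of the Cat- signal in the Cat+ sample. *S100a11*, in another cluster, was 1.37-fold higher. The myeloid pair *S100a8* and *S100a9* had almost equal signals in both samples, but these were dim, where a lack of difference says little. The members were chosen by name and with earlier results of these arrays in view, among them the low Cat+ over Cat- ratios of *S100a6* and *S100a4*. Their signals and ratios are therefore a description, without a test. A probe set, the group of oligonucleotides that reads one transcript, was taken where the platform annotation names one of the members alone. This gave 10 probe sets for 10 genes, of 29870 probe sets and 18166 genes with 1 value each.

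The genotype of the Cat+ sample was *Lss* s/*Lss* l at 5 weeks of age, that is, with the mutant l allele of lanosterol synthase over the s allele. That of the Cat- sample, of the same age, was *Lss* s/*Lss* s, so both groups carry the polymorphic s allele and neither is a wild type. The strain also carries *Fdft1* mutant alleles, and the *Fdft1* genotype of each sample is not given in the sources used here. Each sample was the LECs on the lens capsules of a pair of eyes, read on 1 GeneChip Rat Gene 2.0 ST array, and genotype was set from tail DNA. Whether a pair of eyes came from a single rat is not given in the sources used here. With 1 array in each group the spread between animals is unknown and no test was possible. The nearest measure of error is between probe sets, for which 291 genes read by several of them gave a pooled SD of 0.17 in log2 difference within a gene, equal to 1.13-fold. Log2 signals ran from 4.13 to 12.56 in Cat+ with a median of 5.69, and from 4.13 to 12.50 in Cat- with a median of 5.67. The LEC markers *Foxe3* and *Pax6* are both transcription factors of the lens epithelium. They had log2 signals of 9.72 and 10.03 in Cat+, against 9.53 and 9.87 in Cat-. Some genes of other eye cells were about as bright. *Gnat1*, of rods, had 9.95 in Cat+ against 9.35 in Cat-, and *Tyrp1*, of pigment cells, had 9.99 against 9.80. The LEC markers thus do not show that the samples held LECs alone.

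S100 proteins are mostly dimers whose subunits each hold a pair of EF-hand calcium-binding loops. On binding calcium most of them open a surface that grips a partner protein, such as an annexin or a myosin, so they pass calcium signals on rather than catalyse a reaction. Some are also released and act on receptors such as RAGE. The lens keeps its calcium low, and raised lens calcium is a known companion of opacity. In the rodent genome most S100a genes sit side by side, next to genes of the skin barrier, while *S100b* lies apart.

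The 300 bases around the starts of *S100a6*, *S100a4* and *S100a11* are shown because these genes had the largest differences of the members. Each runs from 250 bases before the RefSeq start to 50 bases after it, on GRCr8. Capitals mark matches, on either strand, to any of 5 short motifs: the TATA box core TATAA, the AP-1 site TGANTCA, the heat shock element core GAANNTTC, the GC box GGGCGG and the Maf half-site TGCTGA.
S100a6, chr2:178398287-178398586, + strand: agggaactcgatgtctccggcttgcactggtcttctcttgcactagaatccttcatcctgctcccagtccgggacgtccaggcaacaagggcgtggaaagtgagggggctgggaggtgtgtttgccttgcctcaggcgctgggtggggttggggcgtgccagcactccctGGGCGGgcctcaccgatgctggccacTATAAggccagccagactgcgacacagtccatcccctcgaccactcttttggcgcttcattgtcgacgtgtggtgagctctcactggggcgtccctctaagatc
S100a4, chr2:178388279-178388578, + strand: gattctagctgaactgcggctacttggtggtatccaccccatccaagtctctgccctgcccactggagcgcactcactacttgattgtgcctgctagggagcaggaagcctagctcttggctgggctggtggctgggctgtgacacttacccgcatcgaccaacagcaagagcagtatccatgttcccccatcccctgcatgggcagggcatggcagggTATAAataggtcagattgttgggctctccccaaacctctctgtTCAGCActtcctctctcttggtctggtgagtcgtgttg
S100a11, chr2:181874882-181875181, + strand: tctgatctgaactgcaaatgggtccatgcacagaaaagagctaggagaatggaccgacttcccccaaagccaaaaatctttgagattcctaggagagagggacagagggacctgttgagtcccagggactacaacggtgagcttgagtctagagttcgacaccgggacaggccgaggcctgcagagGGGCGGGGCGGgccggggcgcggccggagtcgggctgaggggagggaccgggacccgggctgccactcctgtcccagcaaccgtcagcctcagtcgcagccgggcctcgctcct

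The windows of *S100a6* and *S100a4* each held a TATA box core, which starts 54 bases before the gene start in *S100a6* and 31 bases before it in *S100a4*. TATAA is found in 26.2% of the 33465 RefSeq promoters of that length. *S100a6* also held a GC box, 80 bases before the start, and *S100a4* a Maf half-site on the other strand, 13 bases into the transcript. *S100a11* held no TATAA and 2 GC boxes that overlap by 1 base, 64 and 59 bases before the start. The GC box is found in 33.1% of all promoters and the Maf half-site in 18.4%. Neither the heat shock element core, found in 8.59% of promoters, nor the AP-1 site, found in 7.33%, has these letters in the windows of the 7 members that the promoter table holds. These are *S100a3*, *S100a4*, *S100a6*, *S100a9*, *S100a11*, *S100a13* and *S100b*. The table has no window for *S100a1*, *S100a8* or *S100a10*. A match of letters is a description of the window and was not tied to binding by any measurement here.

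*S100a6*, or calcyclin, is an S100 protein of proliferating and epithelial cells that binds annexins and the calcyclin-binding protein. Its log2 signal was 7.20 in Cat+ against 8.80 in Cat-, or 147 and 446 on the linear scale. The log2 difference, Cat+ minus Cat-, was -1.60, a fold change of 0.331. The Cat+ signal was thus 66.9% lower, and the log2 difference was 9.3 times the SD between probe sets of one gene. *S100a6* had the 25th lowest difference of the 18166 genes. *S100a4*, or metastasin, binds nonmuscle myosin and is used as a marker of migrating and fibroblast-like cells. Its log2 signal was 8.95 in Cat+ against 10.02 in Cat-, or 495 and 1035 on the linear scale. The log2 difference was -1.06, a fold change of 0.479, which is the 51st lowest of all genes. The study selected genes with a ratio under 0.5 or over 2, and *S100a4* is the member just inside that rule. The next member, *S100b*, lay outside it at a fold change of 0.796, a factor of 1.66 between them.

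By the size rule, 2 of the 10 members were under 0.5, and 0.308% of all genes were. None of the members was over 2, and 0.00550% of all genes were, which is a single gene. The first of these shares was part of what chose the members, and nothing is read from it. Of the 10 members 5 were higher and 5 lower in Cat+, also after median centring, quantile normalization or loess, while 48.8% of all genes were higher. A log2 difference smaller than 0.2 in size was found in 6 of the members and in 74.9% of all genes. The median log2 difference was 0.02 over the members and -0.0049 over all genes.

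**Figure D1:**
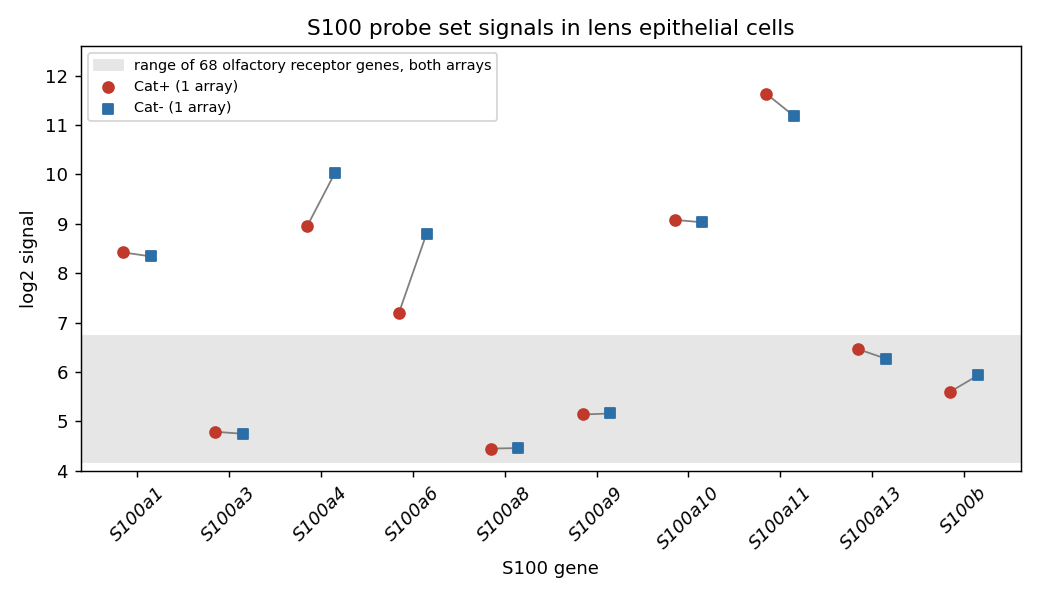
Log2 signal (y axis) of the probe set of each S100 member (x axis) in the Cat+ array (red circles) and the Cat- array (blue squares), 1 array each, joined by a line. The grey band is the range of 68 olfactory receptor genes. *S100a6* and *S100a4* are lower in Cat+ by 1.60 and 1.06, *S100a11* is higher by 0.45, and *S100a3*, *S100a8*, *S100a9*, *S100a13* and *S100b* lie within the band in both samples.

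*S100a11*, or calgizzarin, binds annexin A1 and is found in epithelia, where it takes part in membrane repair and growth control. Its log2 signal was 11.63 in Cat+ against 11.18 in Cat-, a difference of 0.45 and a fold change of 1.37. The difference was 2.6 times the SD between probe sets and the 155th highest of all genes. Its probe set was brighter than 99.9% of genes in Cat+ and 99.7% in Cat-, and saturation was not measured. The rat genome has further copies of this gene, and cross-reading between their probes was not measured. *S100a11l1*, a copy on another chromosome, had log2 signals of 4.97 in Cat+ against 4.70 in Cat-, a fold change of 1.21. A probe set that names *S100a11l2* together with LOC100362296 had 7.26 in Cat+ against 7.03 in Cat-, a fold change of 1.17. All 3 of these probe sets were higher in Cat+, with *S100a11* itself the farthest apart. However, *S100a11l1* was brighter than only 17.0% of genes in Cat+ and 10.6% in Cat-, so its difference says little. With cross-reading not measured, the 3 may not be separate readings.

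*S100a10*, also known as p11, forms a complex with annexin A2 that carries channels to the cell surface. It does not respond to calcium as other S100 proteins do, because its loops have lost calcium binding. Its log2 signal was 9.08 in Cat+ against 9.03 in Cat-, a fold change of 1.04. *S100a10* is the next measured gene to *S100a11*, and their log2 differences were 0.05 and 0.45. *S100a1*, best known in heart and skeletal muscle where it binds ryanodine receptors, had log2 signals of 8.42 in Cat+ against 8.34 in Cat-, a fold change of 1.06. *S100a13*, which takes part in the export of FGF1 and interleukin 1 alpha without a signal peptide, had 6.46 in Cat+ against 6.27 in Cat-, a fold change of 1.14. The differences of *S100a10* and *S100a1* were smaller than the SD between probe sets of one gene, and that of *S100a13* was 1.1 times it.

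*S100a8* and *S100a9* are the subunits of calprotectin, which neutrophils and monocytes hold in bulk. *S100a8* had a log2 signal of 4.45 in Cat+ against 4.46 in Cat-, a fold change of 0.995. *S100a9* had 5.14 in Cat+ against 5.16 in Cat-, a fold change of 0.985. Both differences were far inside the spread between probe sets. The deposited table has no detection calls, so dim signals were set beside 68 olfactory receptor genes, which lens cells are not known to use. Those genes ran from 4.18 to 6.72 in Cat+ with a median of 4.66, and from 4.22 to 6.33 in Cat- with a median of 4.62. *S100a8* was brighter than 21 of the 68 in Cat+ and than 23 in Cat-. *S100a9* was brighter than 56 in Cat+ and than 57 in Cat-. Probe sets differ in affinity, so this places a signal on the array and does not measure a transcript against another.

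*S100b*, the S100 protein of astrocytes, Muller glia and Schwann cells, had log2 signals of 5.60 in Cat+ against 5.93 in Cat-. The log2 difference was -0.33, a fold change of 0.796 and 1.9 times the SD between probe sets. The *S100b* signal was above 61 of the 68 olfactory receptor genes in Cat+ and above 62 in Cat-. *S100a3*, a cysteine-rich, zinc-binding S100 protein of the hair cuticle, had 4.79 in Cat+ against 4.75 in Cat-, a fold change of 1.03. In all, 5 members were brighter than every olfactory receptor gene on both arrays, namely *S100a1*, *S100a4*, *S100a6*, *S100a10* and *S100a11*. The other 5 lay within the range of those genes, and no detection call is given for any of them. A lack of difference in *S100a3*, *S100a8* and *S100a9* says little at this signal. *S100b* and *S100a13* lay higher in the range, with *S100a13* above 67 of the 68 in Cat+ and 66 in Cat-.

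*S100a6* and *S100a4*, chosen partly for their low ratios, are set here beside the genes next to them on the chromosome. In the RefSeq order of GRCr8, used here for neighbours alone, the measured genes run *S100a1*, *S100a13*, *S100a14*, *S100a16*, *S100a3*, *S100a4*, *S100a5*, *S100a6*, *S100a7a*, *S100a8* and *S100a9*, and, after one gene of another family, *S100a7l2* and *S100vp*. *S100a5*, which lies between the 2 low genes, had log2 signals of 4.54 in Cat+ against 4.66 in Cat-, a fold change of 0.917. *S100a3* on one side and *S100a7a* on the other had fold changes of 1.03 and 1.02. All 3 of these neighbours lay within the olfactory receptor range, which leaves little room for a lower signal. *S100a16*, a brighter neighbour that is found in many tissues, had 6.48 in Cat+ against 6.69 in Cat-, a fold change of 0.862. The nearest measured genes of other families at the ends of the cluster were *Snapin*, a protein of vesicle fusion, at 1.10 and *Loricrin*, of the cornified skin barrier, at 0.990. *Pglyrp4*, which binds bacterial peptidoglycan and lies between *S100a9* and *S100a7l2*, was at 1.07.

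**Figure D2:**
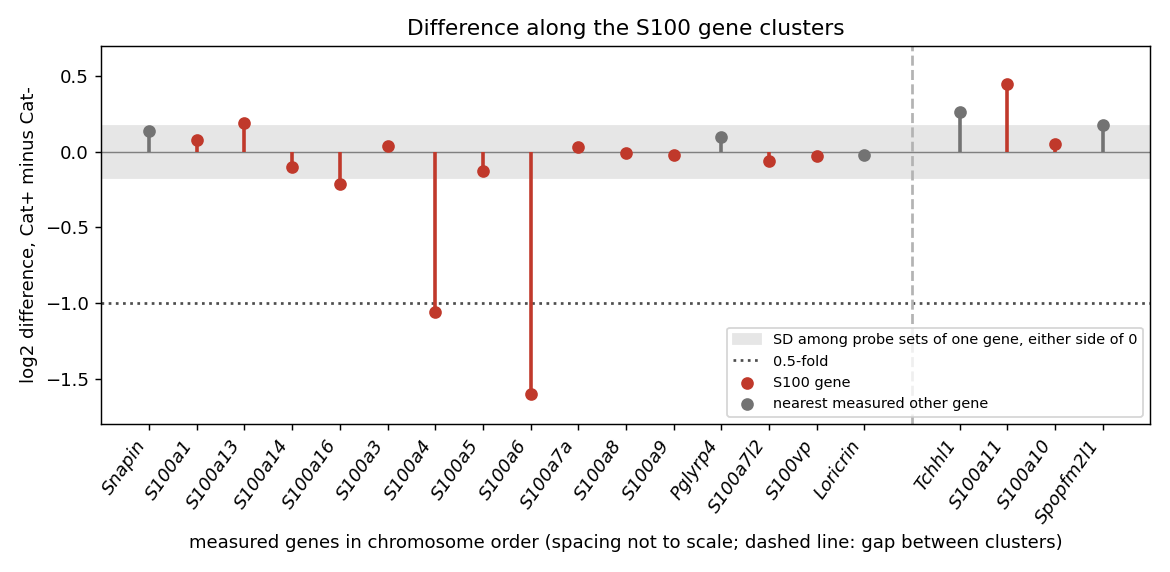
Log2 difference, Cat+ minus Cat- (y axis), of the measured genes in RefSeq order (x axis, spacing not to scale), with S100 genes in red and the nearest measured other genes in grey. The grey band is the SD of 0.17 between probe sets of one gene on either side of 0 and the dotted line is 0.5-fold. *S100a4* at -1.06 and *S100a6* at -1.60 pass the line, while *S100a5* between them is at -0.13.

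Of 11 further S100 genes listed, 8 are named alone by a probe set, and none passed the size rule. Their log2 differences ran from -0.21 for *S100a16* to 0.03 for *S100a7a*, with a median of -0.08. Lower in Cat+ were 6 of the 8, or 7 after any of the 3 other scalings, which turn *S100g*. However, 6 of the 8 differences were smaller than the SD between probe sets, and 7 of the 8 genes lay within the olfactory receptor range on both arrays. *S100z* had a fold change of 0.885, *S100a14*, an epithelial member, 0.934 and *S100a7l2* 0.962. *S100vp* was at 0.977, and *S100g*, the vitamin D-dependent calbindin of intestine, had log2 signals of 5.77 in Cat+ against 5.76 in Cat-. Over the 18 S100 genes together 7 were higher and 11 lower, or 6 and 12 after the other scalings. Of all genes 48.8% were higher. A log2 difference smaller than 0.2 in size was found in 13 of the 18 and in 74.9% of all genes. The other 5 of the 18 were *S100a6*, *S100a4*, *S100a11*, *S100b* and *S100a16*.

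**Figure D3:**
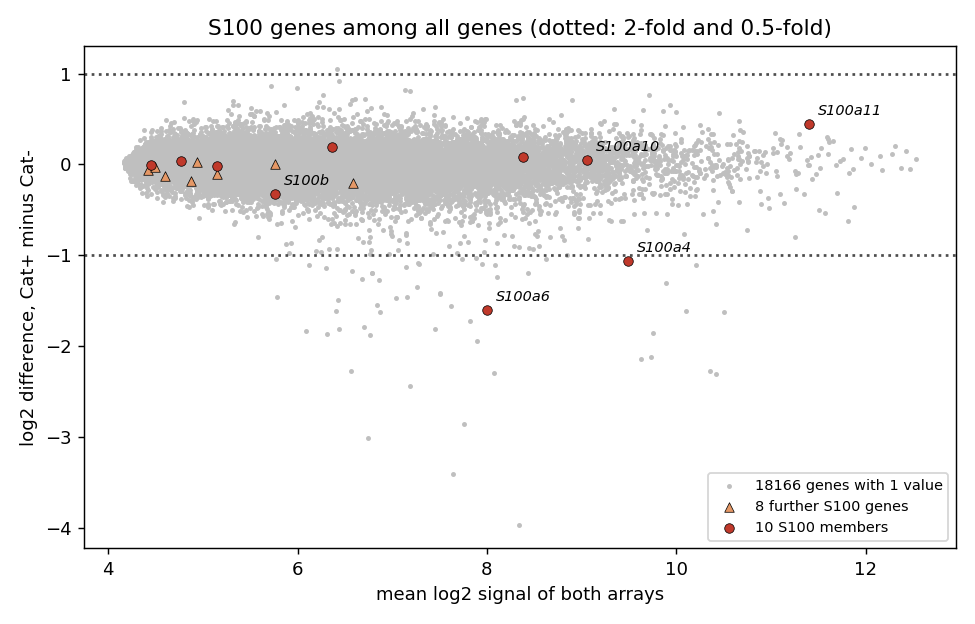
Log2 difference, Cat+ minus Cat- (y axis), against the mean log2 signal of both arrays (x axis) for 18166 genes in grey, with the 10 S100 members as red circles and 8 further S100 genes as orange triangles. Dotted lines mark 2-fold and 0.5-fold. *S100a6* and *S100a4* lie below the lower line, and *S100a11* lies at the bright end of the array with a difference of 0.45.

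By their pair of signals, the genes nearest to *S100a6* outside the family were *Lpin1*, a phosphatidate phosphatase, *Clic3*, a chloride intracellular channel protein, and *Coro2b*, a coronin. Nearness is the straight-line distance between the pairs of log2 signals, over 2 arrays. It was 0.27 for *Lpin1*, which had log2 signals of 6.96 in Cat+ against 8.69 in Cat-, and 0.29 for *Clic3*, with 6.92 in Cat+ against 8.86 in Cat-. It was also 0.29 for *Coro2b*, with 7.48 in Cat+ against 8.72 in Cat-. The genes nearest to *S100a4* were *Tubb6*, a tubulin, *Ube2k*, a ubiquitin-conjugating enzyme, and *Timm23*, part of the mitochondrial import channel. They lay at distances of 0.32, 0.32 and 0.37. Their fold changes were 0.648, 0.649 and 0.684, all higher than that of *S100a4*. *S100a4* had the 51st lowest difference, so few genes could lie lower, and nothing is read from this. *Lpin1*, *Clic3* and *Coro2b* had fold changes of 0.302, 0.260 and 0.424.

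Partner genes of the S100 proteins are given beside the members. Of 34 listed binding partners, receptors and cargo genes, 31 were measured, and none had a fold change under 0.5 or over 2. Of all genes 0.308% were under 0.5 and 0.00550% over 2, so a lack of such genes among 31 says little. Of the 31 partners, 17 were higher and 14 lower in Cat+, or 15 and 16 after median centring. Their median log2 difference was 0.01. *Fkbp8*, a chaperone of the mitochondrial membrane that binds several S100 proteins, had log2 signals of 7.64 in Cat+ against 8.14 in Cat-, a fold change of 0.705. *Trpv5*, an epithelial calcium channel brought to the membrane by *S100a10* with annexin A2, had 4.81 in Cat+ against 5.16 in Cat-, within the olfactory receptor range, a fold change of 0.784. *Sugt1*, a cochaperone of Hsp90 that binds *S100a6*, had 7.11 in Cat+ against 6.81 in Cat-, a fold change of 1.23. *Anxa1*, annexin A1, the partner of *S100a11*, had 10.36 in Cat+ against 10.09 in Cat-, a fold change of 1.21.

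Further partners, all on the list, were named after their values were seen. Those named here for *S100a6* are *Sugt1* and 4 others. *Fkbp8*, which binds several S100 proteins and was lower in Cat+, is not counted with them. *Cacybp*, the calcyclin-binding protein, had log2 signals of 8.80 in Cat+ against 8.57 in Cat-, a fold change of 1.17. *Anxa6* and *Anxa11*, both annexins, had log2 differences of -0.19 and -0.05, and *Iqgap1*, a scaffold of the cell cortex, one of 0.10. Of the listed partners of *S100a4*, the nonmuscle myosin *Myh9* had 8.15 in Cat+ against 8.21 in Cat-, a log2 difference of -0.07, and *Ppfibp1*, liprin beta, one of 0.18. The other nonmuscle myosins on the list, *Myh10* and *Myh14*, had log2 differences of -0.18 and -0.16. Among these partners the 3 myosins, *Anxa6* and *Anxa11* were lower in Cat+, and *Sugt1*, *Cacybp*, *Iqgap1* and *Ppfibp1* were higher. The differences of *Myh9*, *Myh14*, *Anxa11* and *Iqgap1* were smaller than the SD of 0.17 between probe sets of one gene. *Anxa2*, the partner of *S100a10*, had 9.86 in Cat+ against 9.67 in Cat-, a log2 difference of 0.19. Among receptors of released S100 proteins, *Ager*, which encodes RAGE, had 5.93 in Cat+ against 5.92 in Cat-, and *Tlr4*, a receptor of *S100a8* and *S100a9*, had 6.42 in Cat+ against 6.38 in Cat-.

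The members are each known from particular cell types, so marker genes of those cells are given beside them. In RNA of a whole tissue sample, fewer cells of a type and less RNA per cell cannot be told apart. The 12 measured lens fiber genes, of 15 listed, were all lower in Cat+, and 7 had a fold change under 0.5. Their log2 signals ran from 5.42 to 11.84 in Cat+ and from 6.88 to 12.13 in Cat-, with a median log2 difference of -1.37. *Lgsn*, or lengsin, was at 0.0636, *Mip*, the fiber water channel, at 0.202, *Crygc* at 0.206 and *Dnase2b*, the nuclease of fiber denucleation, at 0.207. The study named all 7 of the fiber genes under 0.5 from these samples, so the list is not independent of that choice. *S100a6* and *S100a4* were low beside it, and its part in their signals was not tested. The 11 measured lens epithelium markers had a median log2 difference of 0.14, with 7 higher and 4 lower in Cat+. Of these *Slc38a2*, an amino acid transporter, was at 1.28, *Itga6*, a laminin-binding integrin, at 0.838 and *Cdh1*, the epithelial cadherin, at 1.13.

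*S100a4* is used as a fibroblast marker, and 11 of 12 listed fibroblast genes were measured. Their median log2 difference was 0.03, with 6 higher and 5 lower in Cat+. *Lum*, the proteoglycan lumican, was at 1.41, *Fn1*, fibronectin, at 0.791, *Col1a1*, a collagen, at 1.18 and *Thy1* at 0.906. None of the 11 had a fold change under 0.5, and 0.308% of all genes did, so this lack says little. Within the olfactory receptor range on both arrays were 6 of the 11. The part of fibroblasts in the *S100a4* signal was not tested.

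The myeloid members can be set beside 2 lists. All 15 macrophage markers were higher in Cat+, with a median log2 difference of 0.34 and log2 signals from 5.34 to 9.25 in Cat+ and from 5.19 to 8.54 in Cat-. *Cd68*, a lysosomal glycoprotein, was at 1.90, *Lyz2*, lysozyme, at 1.64, *C1qb* at 1.47 and *C1qc*, both of complement, at 1.42. Of 15 neutrophil markers 11 were higher, or 10 after quantile normalization or loess, with a median log2 difference of 0.11. *Camp*, an antimicrobial peptide of neutrophil granules, was at 1.32, *Fpr1*, a receptor of bacterial peptides, at 1.24, and *Cd177* and *Mpo*, myeloperoxidase, were each at 1.12. The defining neutrophil gene *Mpo* had log2 signals of 5.06 in Cat+ against 4.89 in Cat-, and *Elane*, the neutrophil elastase, chosen after its value was seen, had 4.83 in Cat+ against 4.86 in Cat-. Of the 15 neutrophil markers 14 were in the range of the olfactory receptor genes on both arrays, as were *S100a8* and *S100a9*. The exception was *Lcn2*, lipocalin, a granule protein that epithelia also make, named after its value was seen, at 8.86 in Cat+ against 8.72 in Cat-.

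For *S100b*, 10 of 14 listed glial markers were measured, 5 of them higher and 5 lower in Cat+, with a median fold change of 0.997; quantile normalization made 6 higher. *Mag* and *Cnp*, both of myelin, and *Olig2*, a factor of the oligodendrocyte lineage, were at 0.788, 0.802 and 0.795, and *S100b* at 0.796. *Mag* and *Olig2*, like *S100b*, lay within the olfactory receptor range on both arrays. The 2 glial genes above that range on both arrays were *Mbp*, of myelin, and *Aqp4*, a water channel. They were at 0.984 and 1.06, and were named after their values were seen. *Mog*, also of myelin, was at 1.19. The astrocyte filament gene *Gfap*, chosen after its value was seen, had log2 signals of 5.60 in Cat+ against 5.58 in Cat-. Among pigment cells, which also hold *S100b* and *S100a4* protein, 6 of 7 measured markers were higher in Cat+, with a median log2 difference of 0.15. *Mitf*, the master factor of melanocytes, was at 0.714, *Tyr*, tyrosinase, at 1.20, *Mlana* at 1.18 and *Tyrp1* at 1.13. Among 9 measured photoreceptor markers 7 were higher, or 6 after the other scalings, with a median log2 difference of 0.22. *Gnat1*, rod transducin, was at 1.51, *Sag*, arrestin, at 1.37, *Pde6b*, the rod phosphodiesterase, at 1.34 and *Opn1sw*, a cone opsin, at 0.751. Among 5 measured markers of blood and endothelium 3 were higher, with *Hba-a1*, alpha globin, at 0.846, *Tek*, the angiopoietin receptor, at 0.899, *Cdh5*, the endothelial cadherin, at 1.09 and *Vwf* at 1.08. The part of these cell types in the S100 signals was not tested.

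**Figure D4:**
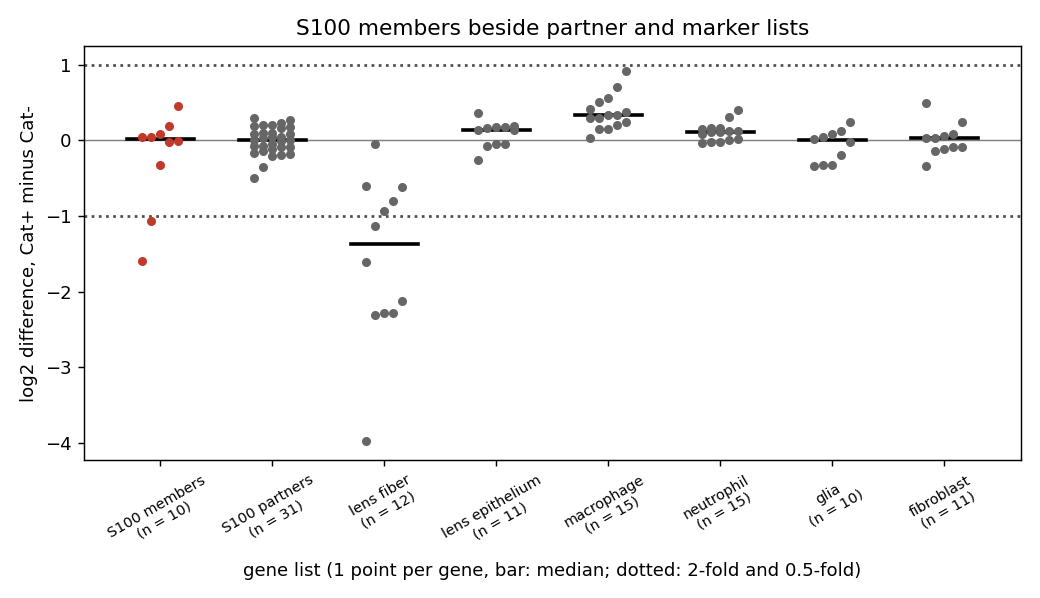
Log2 difference, Cat+ minus Cat- (y axis), of each measured gene (points) in 8 gene lists (x axis), with the median of each list as a bar and dotted lines at 2-fold and 0.5-fold; sideways spread only separates points. The S100 members have a median of 0.02, the fiber genes -1.37 and the macrophage markers 0.34, and *S100a6* and *S100a4* are the points of the S100 members below the lower line.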

How the data were processed

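Messenger RNA of LECs was read on the GeneChip Rat Gene 2.0 ST array, 1 for Cat+ and 1 for Cat-. The authors deposited normalized log2 signals for 29870 probe sets; their methods scale every value of a chip to a control measurement or to the mean brightness of that chip, and name GeneSpring for selection. How background was corrected and probes were combined is not given in the sources used here. The log2 scale was read from the range of the values.

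For each probe set Cat- was subtracted from Cat+ on the log2 scale, without further normalization or filter, and the ratio taken from it. Of the probe sets 18511 name 1 gene, 575 several and 10784 none in the platform annotation; where several read one gene, the brighter was used. The IDs of 18394 single-gene probe sets, those of all 10 members included, matched RefSeq genes of GRCr8. The annotation names no build for the array, so RefSeq was used for names, gene order and promoter sequence. The size rule, a ratio under 0.5 or over 2, is the study's. No test was run on single arrays, and the number of arrays limits the precision.

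The members and gene lists were chosen with earlier results of these data known. The text names all members, the further S100 genes measured and up to 4 genes with the largest differences in each list. It also names the 3 genes nearest to each member under 0.5. Any other gene is marked in the text as picked later. Exceptions are *Foxe3* and *Pax6*, given as LEC markers, and genes next to the members or copies of them. The gene table was tested on simulated data whose differences lay well past the size rule. That checks the code and does not cover a gene near the rule, such as *S100a4*. Alternatives were median centring, quantile normalization, a loess curve with a span of 0.3, a floor at the 20th percentile, a filter at the median signal, the mean of probe sets, use of probe sets that name several genes, and a 1.5-fold or 3-fold threshold. The work used pandas 2.3.3 and NumPy 2.4.6 under Python 3.11.15, with statsmodels 0.14.6 for loess and matplotlib 3.10.9 for plots.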

Additional observations from a re-analysis of the deposited data

How the results depend on the processing

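Of 81 recomputed values, 80 stayed within the SD of 0.17 between probe sets of one gene or, for counts, within 1.5 times the count. The one that did not was the number of S100 members past the size rule. It was 1 with a 3-fold threshold, *S100a6*, against 2 at 0.5-fold. Some of the 81 could not move, since each member has 1 probe set and the mean of probe sets returns that value. The counts of members over 2-fold and of partners under 0.5 were 0 throughout, so the tally is not a measure of robustness. Under median centring, quantile normalization, loess and the floor, the log2 difference ran from -1.61 to -1.57 for *S100a6* and from -1.08 to -1.03 for *S100a4*. It ran from 0.40 to 0.45 for *S100a11* and from -0.34 to -0.33 for *S100b*. For *S100a8* it ran from -0.03 to 0.02, the last with the floor, where both arrays lie at their floor and the value compares floors alone. Centring, quantile normalization and loess turned the sign of no member, and among the listed genes they turned those near 0, *S100g*, *Ager*, *Ryr2*, *Mmp8*, *Mbp* and *Nrl*. The recomputation for the members other than *S100a6* and *S100a4* was chosen after seeing the data. The filter at the median signal kept 7 of the 10 members. No paired analysis was possible because each group has 1 array. Of the 5 members within the signal range of the olfactory receptor genes, *S100a3*, *S100a8* and *S100a9* have little room to read lower. *S100a13* and *S100b* lay higher in that range, at log2 signals of 6.46 and 5.60 in Cat+ and 6.27 and 5.93 in Cat-.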
